A study of Mus musculus with 17 samples.

Results

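The expression of genes that glucocorticoids are known to control was followed in mouse kidney cortex for Nr3c1, Hsd11b1, Fkbp5, Tsc22d3, Klf9, Zbtb16, Sgk1, Errfi1, Rgcc and Angptl7. They are 10 of the 48795 genes in the count table, and they were selected on measured values, since several of them were lower together in the libraries labelled GCERAdT than in those labelled TRACK. Read counts per gene were available for 17 cortices. The 5 WT mice carried no engineered allele named in the labels. The 5 GCERAd mice, labelled ATF4 KO, carried Ggt/CreER and homozygous floxed Atf4 alleles and had been given tamoxifen on 2 days at 6 weeks of age. About a month after the first injection, mice were fasted in metabolic cages and then killed. The methods do not limit this step to GCERAd or name WT, and the age of the WT mice was not stated separately. In GCERAd mice a part of the Ggt1 promoter drives CreER in proximal tubules, so the other cells of the cortex keep Atf4. The 3 TRACK mice come from a transgenic model of kidney cancer, and the 4 GCERAdT mice are labelled TRACK-ATF4 KO. The alleles behind the TRACK transgene, the tamoxifen treatment of the WT, TRACK and GCERAdT mice, and the age and fasting of the TRACK and GCERAdT mice were not given in the sources used here. Values are CPM, read counts scaled to a common library size, after TMM scaling, which balances the libraries on the bulk of their genes. Each group mean carries the SD over its libraries.

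Glucocorticoids are steroid hormones of the adrenal cortex, released in a daily rhythm and in fasting and stress. Inside a cell they bind the glucocorticoid receptor, which moves to the nucleus and binds DNA at paired copies of a short hexamer, raising or lowering nearby genes. Some targets, such as Fkbp5, damp the response in return, and others, such as Tsc22d3, carry it out. The kidney also converts the hormone locally. Hsd11b1 regenerates active corticosterone from its inert form and Hsd11b2 inactivates it in the distal nephron, where the mineralocorticoid receptor would otherwise respond to it.

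A search of promoter windows showed where this hexamer lies near the start sites. Windows of 300 bases, from 250 bases before to 50 bases after a RefSeq start, were taken from GRCm38.p6 and were present for 8 of the 10 genes, in 16 windows. Zbtb16 and Nr3c1 had none. The hexamer TGTTCT, read on either strand, occurred in 6233 of all 32851 windows (19.0%) and in 4 of the 16 windows, which belonged to Sgk1 and Tsc22d3. The paired element, AGAACA and TGTTCT with any 3 bases between them, which contains the hexamer, occurred in 3 of the 32851 windows (0.00913%), and 1 of these belonged to Sgk1. A looser paired element, GNACA and TGTNC with any 3 bases between them, occurred in 156 windows (0.475%) and in 1 of the 16. The 2 windows below are shown because they hold these letters, with capitals marking the hexamer in Tsc22d3 and the paired element and another hexamer in Sgk1. The Sgk1 window is on the plus strand at chr10:21993640-21993939, and its paired element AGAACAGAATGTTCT begins at base 62, 189 bases before the start site. The Tsc22d3 window is on the minus strand at chrX:140600473-140600772, and its hexamer begins at base 66, 185 bases before the start site.
Sgk1: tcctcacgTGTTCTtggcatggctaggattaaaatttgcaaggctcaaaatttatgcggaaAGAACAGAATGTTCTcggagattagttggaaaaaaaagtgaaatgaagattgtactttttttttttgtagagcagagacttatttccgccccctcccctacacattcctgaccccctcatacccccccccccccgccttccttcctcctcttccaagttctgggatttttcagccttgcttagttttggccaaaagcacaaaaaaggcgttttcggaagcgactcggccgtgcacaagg
Tsc22d3: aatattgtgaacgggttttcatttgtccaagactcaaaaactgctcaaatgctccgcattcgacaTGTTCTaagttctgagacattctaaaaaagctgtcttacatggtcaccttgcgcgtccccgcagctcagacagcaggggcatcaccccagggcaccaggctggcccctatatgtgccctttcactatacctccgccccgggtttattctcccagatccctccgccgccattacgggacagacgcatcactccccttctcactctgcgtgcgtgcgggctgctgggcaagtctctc
These matches describe the letters of the windows and not occupancy by the receptor, and distal sites were not searched.

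The libraries held between 53688512 and 71364561 counts on genes. Atf4, the deleted gene, was at 84.5 ± 9.81 CPM in WT (n = 5) and 65.4 ± 9.30 CPM in GCERAd (n = 5), and the groups overlapped (log2 fold change -0.38, adjusted p = 0.0218, edgeR's quasi-likelihood test). In TRACK it was at 83.6 ± 8.93 CPM (n = 3) and in the libraries labelled GCERAdT at 92.4 ± 10.0 CPM (n = 4), so the targeted gene was not lower there and the label could not be checked by its counts. Counts per exon of Atf4 were not used here, and cells outside the proximal tubule keep the gene. Xist was at 149 to 418 CPM in the WT libraries and at most 6.08 CPM in every other library, and 4 Y-linked genes summed to at most 0.306 CPM in WT and to at least 130 CPM in the other groups. The sex of the mice is not given in the labels, and a difference between WT and any other group therefore cannot be told apart from a difference in sex. TRACK and GCERAdT libraries overlapped in the summed Y-linked genes, at 134 to 154 and 139 to 167 CPM.

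Some libraries stood apart from others of their group. GCERAd 4 and 5 deviated together from their group mean over all expressed genes (r = 0.74) and opposite to GCERAd 1, 2 and 3 (r between -0.77 and -0.44), and TRACK 3 stood apart from TRACK 1 and 2. The share of counts on processed pseudogenes split the libraries into 2 kinds, 0.032% to 0.038% in 8 libraries and 0.0574% to 0.0784% in 9. TRACK libraries were all of the second kind, as were GCERAdT 3 and 4, GCERAd 3, 4 and 5, and WT 2. The labels number 5 separate mice in WT and in GCERAd, although the methods give fewer mice per cohort. WT 1 and 2, GCERAd 2 and 3, and GCERAdT 2 and 3, each 1 library of either kind, may be repeat libraries of the same mice. The fat marker Cfd was at 15.5 and 15.2 CPM in GCERAd 2 and 3 and at most 0.124 CPM in the other GCERAd libraries, and at 3.50 and 5.24 CPM in WT 1 and 2 and at most 0.406 CPM in the other WT libraries. In GCERAdT Cfd was at most 0.1635 CPM in every library and cannot mark a pair. The study's sequencing summary lists libraries without group labels, and 2 of its sample names recur with a letter added. Which labels these names belong to was not given, so whether the pairs above are repeats was not settled. The p-values measure only the spread between the libraries.

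Compared per exon length, Errfi1 was the most abundant of the 10 genes in WT at 81.7 ± 11.1 FPKM, followed by Klf9 at 34.8 ± 2.12, Sgk1 at 20.5 ± 3.54, Rgcc at 20.05 ± 2.65 and Nr3c1 at 10.4 ± 0.442 FPKM (SD, n = 5). Fkbp5, Tsc22d3 and Hsd11b1 followed at 8.11 ± 2.48, 7.25 ± 0.875 and 5.39 ± 0.936 FPKM, and Fkbp5 and Tsc22d3, like Sgk1 and Rgcc, differed by less than their SD. Zbtb16 at 2.23 ± 0.889 and Angptl7 at 1.65 ± 0.427 FPKM were the least abundant. All 10 genes passed the minimum of 1 FPKM in each comparison, which asks for that mean in either group only. Zbtb16 in GCERAdT was below it, at 0.660 ± 0.0943 FPKM.

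In GCERAd cortices 5 of the 10 genes rose against WT, namely Hsd11b1, Errfi1, Tsc22d3, Klf9 and Nr3c1, and none fell. Of all 11576 genes tested, 27.6% were called, 14.1% higher and 13.5% lower. With the libraries that may be repeats summed, the same 5 genes were called, where 23.8% of all genes were. Tsc22d3 and Nr3c1 were then near the threshold (adjusted p = 0.042 and 0.0496, edgeR). The median log2 fold change of the 10 genes was 0.54, and that of all tested genes was -0.00065. In the libraries labelled GCERAdT, 7 of the 10 genes were lower than in TRACK without overlap and none was higher without overlap, where 12.7% of all 11923 genes were lower and 10.2% higher without overlap. That contrast selected the genes, so its values are given as a description, without a test. Its median log2 difference was -1.30, against 0.014 over all genes. The comparison of GCERAd with WT shares no library with it.

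**Figure D1:**
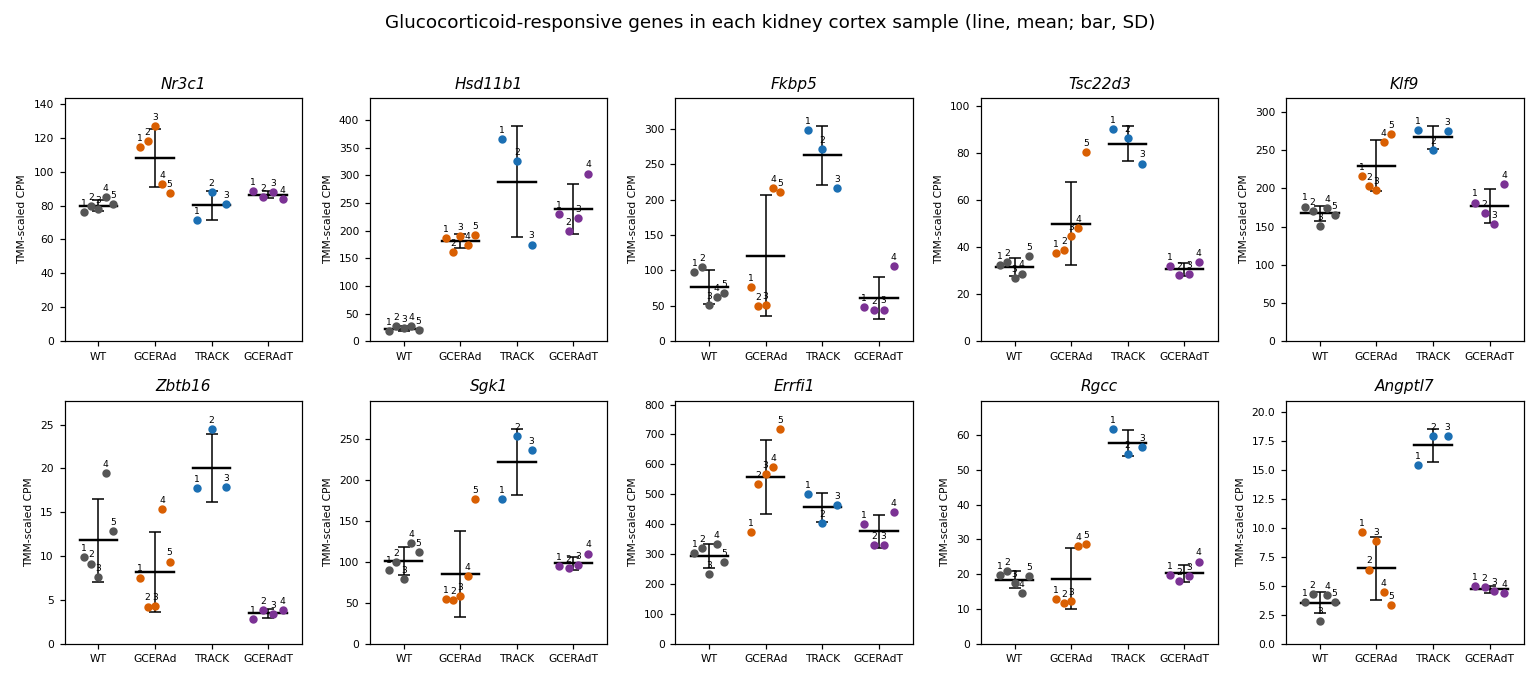
TMM-scaled CPM of each of the 10 genes (vertical axes, linear from 0) in each library, by group. Points are libraries with their replicate number, lines are means and bars are SD. TRACK points lie above all GCERAdT points for 7 genes. GCERAd 4 and 5 lie outside the range of GCERAd 1 to 3 for every gene except Hsd11b1. They are lower for Nr3c1 and Angptl7 and higher for the others.

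Nr3c1, which encodes the glucocorticoid receptor itself, rose in GCERAd and was alike in range in the other groups. Its WT libraries had 76.3, 79.7, 77.9, 85.2 and 80.8 CPM, and its GCERAd libraries 115, 118, 127, 92.5 and 87.3 CPM. All GCERAd values lay above all WT values, and GCERAd 4 and 5 were the lowest of their group. The log2 fold change was 0.42 (SE 0.11, adjusted p = 0.0126, edgeR). TRACK libraries had 71.4, 88.2 and 80.8 CPM and the libraries labelled GCERAdT 88.6, 85.1, 88.2 and 84.0 CPM, which overlapped, with a log2 difference of 0.13. Nr3c1 was not among the 7 of the 10 genes that were lower without overlap there. Its part in their values was not tested.

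Hsd11b1, on chromosome 1 (193221634 to 193264075, GRCm38, minus strand), showed the largest difference of the 10 genes between GCERAd and WT. WT libraries had 18.1, 27.0, 23.2, 26.6 and 19.7 CPM, and GCERAd libraries 186, 162, 190, 174 and 192 CPM. The groups were far apart, with a 7.83-fold higher level in GCERAd (log2 fold change 2.97, SE 0.12, adjusted p = 2.65e-08, edgeR). TRACK had 365, 326 and 175 CPM and the libraries labelled GCERAdT 229, 199, 223 and 303 CPM, so every library outside WT was above all WT libraries, while TRACK and GCERAdT overlapped. TRACK 3 was the lowest of all 7 and set that overlap, and without it the log2 difference between GCERAdT and TRACK was -0.51 instead of -0.25, whereas it was -0.055 without TRACK 1 and -0.16 without TRACK 2. In the same libraries 6 of 6 genes listed as higher in male kidneys rose in GCERAd against WT, where 14.1% of all genes did. Of those listed as higher in female kidneys 5 of 5 fell, where 13.5% of all genes did. Both lists hold genes that the study itself named as changed in this comparison. The part of either list in the Hsd11b1 result was not tested.

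Fkbp5 encodes a co-chaperone that lowers the hormone affinity of the receptor, and Tsc22d3, or Gilz, encodes a protein that carries anti-inflammatory effects of the hormone. Fkbp5 lies on chromosome 17 (28399094 to 28517527, minus strand). Its WT libraries had 97.8, 105, 50.9, 62.2 and 67.8 CPM, and its GCERAd libraries 76.1, 49.4, 51.1, 217 and 211 CPM. GCERAd thus held 3 libraries within or below the WT range and 2 at more than the highest WT value, and the difference did not pass the test (log2 0.64, SE 0.43, adjusted p = 0.295, edgeR). It was 0.32 without GCERAd 4 and 0.34 without GCERAd 5. TRACK libraries had 299, 272 and 217 CPM, and those labelled GCERAdT 48.9, 44.6, 44.8 and 106 CPM. The 2 groups did not overlap, and the mean in GCERAdT was 4.25-fold lower on the fitted scale (log2 difference -2.09). GCERAdT 4 was the highest of its group, and without it the log2 difference was -2.48.

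Tsc22d3, on chromosome X (140539528 to 140600659, minus strand), had 32.4, 33.4, 26.7, 28.7 and 36.2 CPM in WT and 37.5, 38.8, 44.7, 48.1 and 80.3 CPM in GCERAd. All GCERAd values were above all WT values, but the highest WT and the lowest GCERAd library were close together. The log2 fold change was 0.65 (SE 0.19, adjusted p = 0.0232, edgeR), and without WT 3 or without WT 4 it no longer passed (adjusted p = 0.0569 and 0.0547). Without GCERAd 5 the log2 fold change was 0.42 (adjusted p = 0.0156, edgeR). TRACK libraries had 90.0, 86.1 and 75.4 CPM and those labelled GCERAdT 31.8, 28.0, 28.5 and 33.5 CPM. This was 2.71-fold lower in GCERAdT (log2 difference -1.44), and the GCERAdT values lay within the WT range. It was one of 2 genes, with Zbtb16, that were lower without overlap in GCERAdT than in GCERAd, where 10.6% of all genes were.

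Klf9 and Zbtb16 encode zinc finger transcription factors. Klf9, on chromosome 19 (23141226 to 23168134, plus strand), had 176, 170, 151, 175 and 165 CPM in WT and 217, 203.5, 198, 261 and 271 CPM in GCERAd. The groups did not overlap, and it rose by 0.45 on the log2 scale (SE 0.095, adjusted p = 0.00498, edgeR). TRACK had 276, 250 and 275 CPM and the libraries labelled GCERAdT 182, 168, 153 and 206 CPM, a log2 difference of -0.57 without overlap. Zbtb16, or Plzf, on chromosome 9 (48654297 to 48836222, minus strand), had the largest difference of the 10 genes between these groups. TRACK libraries had 17.8, 24.5 and 17.9 CPM and those labelled GCERAdT 2.82, 3.89, 3.40 and 3.85 CPM, which is 5.68-fold lower (log2 difference -2.50). The GCERAdT mean was below the 1 FPKM minimum, with counts of 208 to 245, and the gene passed through TRACK. In WT it had 9.88, 9.15, 7.62, 19.5 and 12.8 CPM and in GCERAd 7.55, 4.25, 4.35, 15.4 and 9.38 CPM. GCERAd and WT overlapped (log2 -0.54, SE 0.36, adjusted p = 0.289, edgeR), with a log2 value of -0.28 without WT 4 and -0.90 without GCERAd 4. The GCERAdT values were below every library of every other group.

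Sgk1 encodes a kinase that promotes sodium uptake through the epithelial sodium channel, and Errfi1 encodes an inhibitor of the EGF receptor. Sgk1 lies on chromosome 10 (21882184 to 21999903, plus strand), and its window above holds the paired element. WT libraries had 90.5, 99.2, 78.7, 123 and 112 CPM, and GCERAd libraries 54.7, 53.6, 57.7, 82.3 and 176 CPM. GCERAd 1, 2 and 3 were below all WT libraries and GCERAd 5 above them, so the group difference did not pass (log2 -0.26, SE 0.30, adjusted p = 0.555, edgeR). Without GCERAd 5 it did, with a log2 fold change of -0.71 (adjusted p = 0.00811). TRACK had 176, 253 and 236 CPM and the libraries labelled GCERAdT 94.8, 92.1, 96.2 and 110 CPM, a log2 difference of -1.15 without overlap, with GCERAdT inside the WT range.

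Errfi1, on chromosome 4 (150853919 to 150868892, plus strand), had 305, 319, 234, 333 and 272 CPM in WT and 374, 535, 566, 591 and 719 CPM in GCERAd. The groups did not overlap, and it rose by 0.92 on the log2 scale (SE 0.16, adjusted p = 0.00123, edgeR). TRACK had 502, 404 and 464 CPM and the libraries labelled GCERAdT 402, 329, 331 and 441 CPM, which overlapped (log2 difference -0.26). Errfi1 was the only one of the 10 genes besides Nr3c1 whose mean was highest in GCERAd.

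Rgcc encodes a regulator of the cell cycle and Angptl7 a secreted angiopoietin-like protein. Rgcc, on chromosome 14 (79288756 to 79301645, minus strand), had 19.7, 20.8, 17.4, 14.6 and 19.4 CPM in WT and 12.9, 11.8, 12.2, 28.1 and 28.8 CPM in GCERAd. Its means in both groups were nearly equal (log2 0.01, SE 0.26, adjusted p = 0.979, edgeR), while GCERAd 1 to 3 were all below WT and GCERAd 4 and 5 all above it. TRACK had 61.8, 54.5 and 56.5 CPM and the libraries labelled GCERAdT 19.7, 18.1, 19.5 and 23.6 CPM, a 2.81-fold lower level (log2 difference -1.49). Angptl7, on chromosome 4 (148495183 to 148500460, minus strand), had 3.62, 4.32, 2.01, 4.19 and 3.63 CPM in WT and 9.62, 6.40, 8.84, 4.46 and 3.33 CPM in GCERAd. Here GCERAd 1 to 4 were above all WT libraries and GCERAd 5 was within their range, and the difference just missed the threshold (log2 0.87, SE 0.31, adjusted p = 0.0535, edgeR). TRACK had 15.5, 17.9 and 18.0 CPM and the libraries labelled GCERAdT 5.02, 4.88, 4.54 and 4.39 CPM, 3.58-fold lower (log2 difference -1.84). Angptl7 lies within Mtor, which is read from the other strand, and their exons do not overlap.

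**Figure D2:**
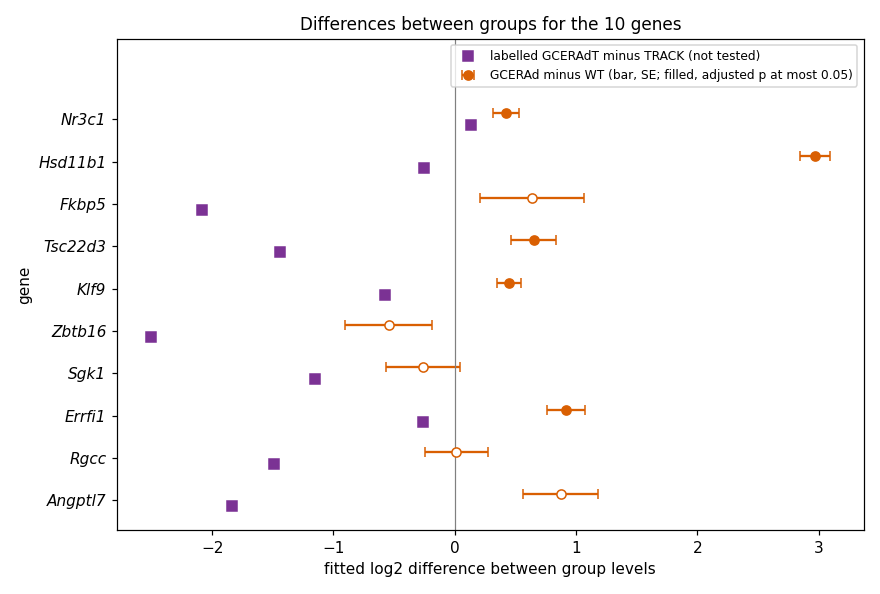
Fitted log2 differences (horizontal axis) for the 10 genes: circles are GCERAd minus WT with SE bars, filled at an adjusted p of at most 0.05, and squares are libraries labelled GCERAdT minus TRACK, not tested. Circles range from -0.54 for Zbtb16 to 2.97 for Hsd11b1 and squares from -2.50 for Zbtb16 to 0.13 for Nr3c1.

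Spread within a group differed between the genes and was widest in GCERAd. Fkbp5 had a coefficient of variation of 70.9% in GCERAd and 15.8% in TRACK, and Sgk1 had 61.6% and 18.3%. Rgcc had 47.2% in GCERAd and 6.57% in TRACK, whereas Hsd11b1 went the other way, with 7.00% in GCERAd and 34.8% in TRACK. GCERAd 5 was the highest of its group for 6 of the 10 genes, GCERAdT 4 for 7, and WT 3 was the lowest of its group for 7. With GCERAd 4 and 5 left out, 9 of the 10 genes were called against WT, where 30.9% of all genes were. Nr3c1, Hsd11b1, Tsc22d3, Klf9, Errfi1 and Angptl7 were then higher, Sgk1, Zbtb16 and Rgcc were lower, and Fkbp5 was not called (log2 -0.38, adjusted p = 0.265, edgeR). For Sgk1, Zbtb16 and Rgcc the log2 fold changes were then -0.86, -1.12 and -0.57 (adjusted p = 0.000882, 0.0211 and 0.00404, edgeR). GCERAd 4 and 5 were left out after their values had been seen. The GCERAd libraries kept include a pair that may be repeat libraries of the same mouse, as do the WT libraries. These calls may therefore rest on fewer mice than libraries, and the spread between mice may be understated.

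TRACK was the group with the highest mean for 8 of the 10 genes. Against WT, 8 genes were higher in TRACK without overlap, where 22.6% of all genes were, and the median log2 difference was 1.27. Hsd11b1 was 12.6-fold, Angptl7 4.80-fold, Fkbp5 3.41-fold, Rgcc 3.12-fold, Tsc22d3 2.65-fold, Sgk1 2.20-fold, Klf9 1.59-fold and Errfi1 1.56-fold higher on the fitted scale. Zbtb16 (log2 0.76) and Nr3c1 (log2 -0.00026) overlapped. This comparison shares its TRACK libraries with the contrast that selected the genes and its WT libraries with GCERAd against WT, and it was not tested.

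The other genes of the response were read from a list of 26 further glucocorticoid-responsive genes, of which 25 passed the FPKM minimum in both comparisons. In GCERAd against WT 5 rose, 5 fell and 15 did not pass, with a median log2 fold change of 0.17, where 14.1% of all genes tested rose and 13.5% fell, so these counts are near that background. Cebpd, a transcription factor of the acute phase, fell from 21.6 ± 6.93 to 5.54 ± 2.01 CPM (log2 -1.97, adjusted p = 0.000304, edgeR). Per2, a repressor of the circadian clock, rose from 7.22 ± 0.570 to 20.2 ± 1.80 CPM (log2 1.48, adjusted p = 7.46e-07, edgeR). Lcn2, an iron-binding lipocalin, and Mt1, a metallothionein, fell by 1.47 and 1.17 on the log2 scale (adjusted p = 0.00300 and 0.000182, edgeR). Dusp1, Usp2, Lpin1 and Irs2 were the other genes that rose, and Mt2 and Cdkn1a the other genes that fell.

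In the libraries labelled GCERAdT 16 of the 25 genes were lower than in TRACK without overlap, 1 was higher and 8 overlapped, where 12.7% of all genes were lower and 10.2% higher, and the median log2 difference was -0.57. Per2 was at 5.24 ± 1.15 against 33.05 ± 1.18 CPM in TRACK (log2 difference -2.64). Lcn2 was at 2.56 ± 0.879 against 12.7 ± 11.0 CPM, where TRACK 3 alone had 25.4 CPM. Usp2, a deubiquitinase, was at 51.6 ± 7.56 against 174 ± 14.8 CPM, and Glul, glutamine synthetase, at 287 ± 50.5 against 930 ± 202 CPM. Cdkn1a, a cell cycle inhibitor, was the gene that was higher, at 54.2 ± 14.6 against 40.04 ± 4.26 CPM. Its lowest GCERAdT library, at 44.87 CPM, was barely above its highest TRACK library, at 44.84 CPM, and GCERAdT 4 had 75.88 CPM.

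Of 15 genes for the receptor's partners and for enzymes and pumps that handle the hormone, 3 rose and 4 fell in GCERAd against WT, where 14.1% of all genes rose and 13.5% fell. Srd5a1, a steroid reductase, rose by 1.37 and the chaperone gene Hsp90ab1 by 0.52 on the log2 scale, and the efflux pump genes Abcb1b and Abcb1a fell by 1.88 and 0.86 (adjusted p = 0.000104, 0.0125, 0.000506 and 0.000128, edgeR). Hsd11b2, which inactivates the hormone, fell from 171 ± 21.99 to 117 ± 11.2 CPM (log2 -0.56, adjusted p = 0.00194, edgeR). Between GCERAdT and TRACK 12 of the 15 overlapped, Nr3c2, the mineralocorticoid receptor gene, and Srd5a1 were higher without overlap in GCERAdT (log2 differences 0.37 and 0.24), and Hsp90ab1 was lower (-0.26). Of 5 genes of sodium and potassium handling that aldosterone and Sgk1 act on, 4 fell in GCERAd, where 13.5% of all genes fell, namely Kcnj1, Scnn1g, Scnn1b and Scnn1a, by 0.91, 0.54, 0.47 and 0.31 on the log2 scale (adjusted p = 4.67e-05, 0.00395, 0.00177 and 0.0220, edgeR). Between GCERAdT and TRACK Scnn1a was lower (-0.47) and Kcnj1 higher (0.47) without overlap. In bulk cortex fewer cells of a type and less RNA per cell cannot be told apart, and summed collecting duct markers were at 823 to 1020 CPM in WT and 348 to 575 CPM in GCERAd. Summed thick limb and distal markers were at 6240 to 8660 CPM in WT and 4140 to 5290 CPM in GCERAd, and the part of either in the channel genes was not tested.

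**Figure D3:**
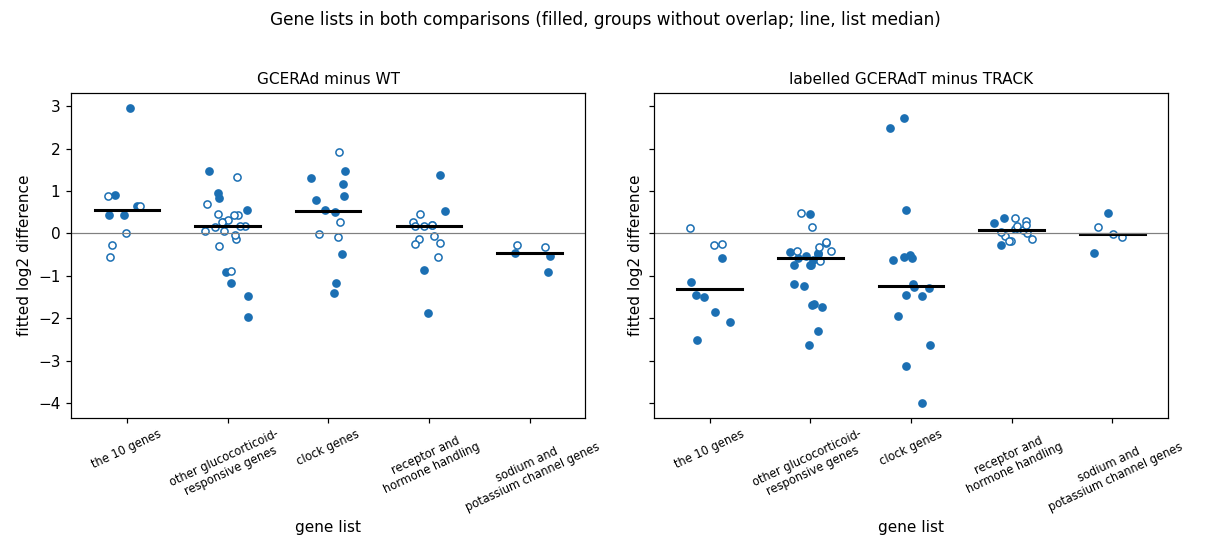
Fitted log2 differences (vertical axes) of the genes that passed the FPKM minimum in each list, for GCERAd minus WT and for libraries labelled GCERAdT minus TRACK; points are genes, filled where the groups do not overlap, and lines are list medians. In the second comparison the medians are -1.30 for the 10 genes, -0.57 for the other glucocorticoid-responsive genes and -1.23 for clock genes. Per1 and Per2 are in both of the last lists named.

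Clock genes also differed between TRACK and the libraries labelled GCERAdT. Per1 and Per2 belong to this list and to that of further glucocorticoid-responsive genes, and are counted in both. Core clock genes form a loop in which Arntl, Clock and Npas2 activate and the Per, Cry and Nr1d genes repress, and their transcripts cycle in opposite phases over a day. All 16 listed clock genes were separated between GCERAdT and TRACK without overlap, 3 higher and 13 lower in the libraries labelled GCERAdT, where 10.2% and 12.7% of all genes were. Arntl had 2.29, 2.33 and 4.77 CPM in TRACK and 19.7, 15.5, 14.0 and 20.1 CPM in GCERAdT. Npas2 likewise was higher, with a log2 difference of 2.73. Dbp, a target of the loop, had 109, 106 and 94.6 CPM in TRACK and 8.91, 14.9, 12.9 and 9.53 CPM in GCERAdT, and Ciart was 15.9-fold lower. In GCERAd against WT 14 of the 16 were tested, 8 rose and 3 fell, where 14.1% and 13.5% of all genes did, with Per2 higher and Arntl lower (log2 -1.41, adjusted p = 0.000127, edgeR). The hour at which the mice were killed was not given in the sources used here, and the part of clock phase in the values of the 10 genes was not tested.

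In the list of further responsive genes, Pdk4 and Pck1 were far higher in GCERAd 4 and 5 than in GCERAd 1 to 3, as was Fkbp5. Pdk4 and Pck1 are induced in fasting, the first restraining glucose oxidation and the second making glucose. They were picked for description after their values had been seen. Pck1 had 966, 1367 and 1237 CPM in GCERAd 1 to 3 and 8629 and 8163 CPM in GCERAd 4 and 5, beside 1845 to 3061 CPM in WT. Pdk4 had 9.51, 15.2 and 17.4 CPM in GCERAd 1 to 3 and 222 and 237 CPM in GCERAd 4 and 5, beside 27.8 to 47.2 CPM in WT. Both were high in TRACK and in GCERAdT, where Pck1 overlapped (5556 to 8904 and 4957 to 6227 CPM). Their part in the values of Fkbp5, Rgcc and Sgk1 in GCERAd 4 and 5 was not tested.

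**Figure D4:**
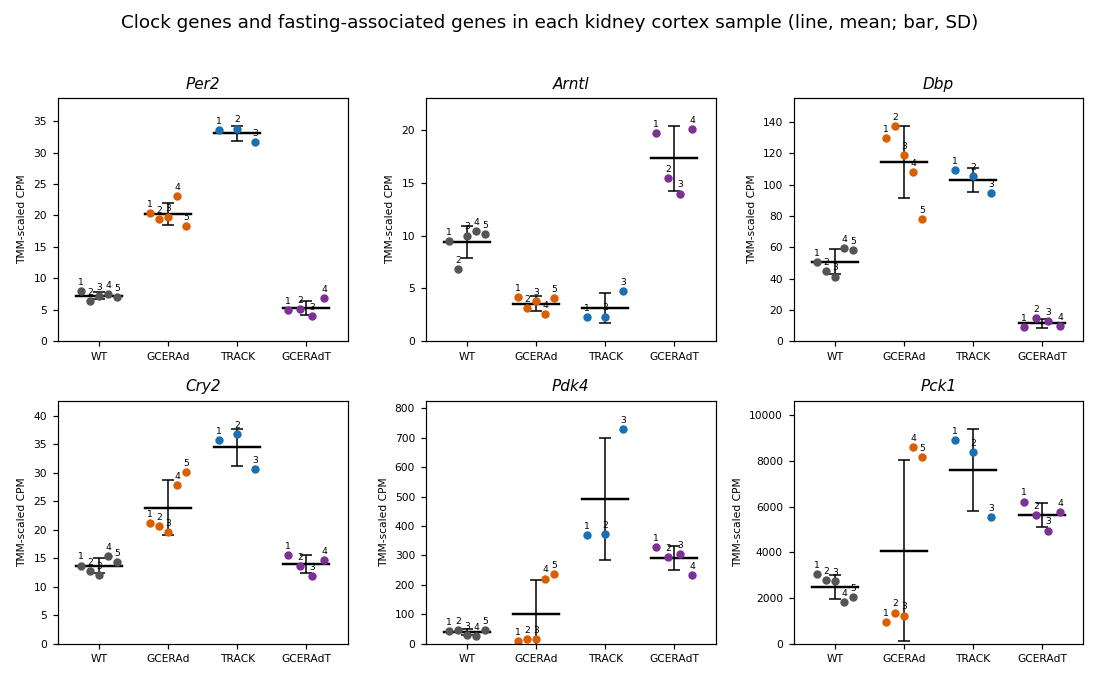
TMM-scaled CPM (vertical axes, linear from 0) of 4 clock genes and of Pdk4 and Pck1 in each library, by group. Points are libraries with their replicate number, lines are means and bars are SD. Arntl is above and Per2, Dbp and Cry2 are below all TRACK points in the libraries labelled GCERAdT, and Pck1 in GCERAd 4 and 5 is at 8629 and 8163 CPM.

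Markers of the tissue and of neighbouring cell types were read in the same libraries. Summed proximal tubule markers were at 6360 to 7430 CPM in TRACK and 6060 to 7240 CPM in the libraries labelled GCERAdT, which overlapped. The sums of thick limb and distal, collecting duct and immune markers overlapped as well. Gene by gene, 1 of 6 proximal tubule markers was higher and 1 lower without overlap in GCERAdT. Higher without overlap were also 2 of 5 thick limb and distal, 1 of 6 collecting duct and 1 of 4 tested immune markers, and none of these was lower. Of all genes, 10.2% were higher and 12.7% lower without overlap. Glomerular and vessel markers were at 760 to 783 CPM in TRACK and 554 to 651 CPM in GCERAdT, with 3 of 6 lower and 1 higher without overlap. Adipocyte markers were at 51.7 to 154 CPM in TRACK and 43.6 to 70.2 CPM in GCERAdT, and 3 of the 4 that passed the FPKM minimum were lower without overlap. The sums in TRACK 1, 2 and 3 were 154, 51.7 and 101 CPM. Adipoq and Cfd were high in TRACK 1 alone, at 7.99 and 51.1 CPM. In TRACK 2 and 3 Adipoq was at 0.0702 and 0.0977 CPM and Cfd at 0.176 and 0.521 CPM. Fabp4 was highest in TRACK 3, at 98.1 CPM against 75.1 CPM in TRACK 1. Without TRACK 1 the log2 differences between GCERAdT and TRACK were -1.99 for Fkbp5, -1.39 for Tsc22d3 and -1.92 for Angptl7. The part of vessels, of fat and of the other cell types in the difference was not tested. Adrenal cortex markers summed to at most 1.49 CPM in any library. Cyp11b1 and Cyp11b2, which make steroid hormones of the adrenal cortex, had 0 counts in all 17.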

How the data were processed

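RNA from 17 mouse kidney cortices was measured by mRNA-seq with a TruSeq Stranded mRNA kit. Reads were trimmed (Cutadapt), mapped to GRCm38 (STAR) and assigned to genes (HTSeq-count) by the authors, who deposited raw counts. The annotation release, strand setting and treatment of reads with several matches were not given in the sources used here. The table held 48795 genes, 663 of them without a name, and groups came from the sample labels.

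Counts were scaled with TMM and compared with the quasi-likelihood test of edgeR 4.0.16 in R 4.3.3, with Benjamini-Hochberg adjustment over all genes tested and a threshold of 0.05. Genes were tested when their mean FPKM, from merged GENCODE M21 exons (GRCm38, with a length for 48349 genes), was at least 1 in either group. Only GCERAd against WT was tested. GCERAdT against TRACK chose the genes, and it, TRACK against WT and GCERAdT against GCERAd are given as fitted log2 differences and as overlap of the groups' values. FPKM are given per exon length where genes are compared. Promoter windows were RefSeq's for GRCm38.p6.

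The members and gene lists were chosen with earlier results of these data known. Named genes are the 10 members, up to 4 genes of each pathway list with the largest called log2 fold change in GCERAd against WT and up to 4 with the largest difference between GCERAdT and TRACK, Atf4 and the sex-linked genes as checks, and the 10 other genes of mean CPM of at least 5 with the most similar profile. Further genes were named after their values had been seen.

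Alternatives were DESeq2 1.42.0, other scaling and filters, all 17 samples in 1 fit, the replicate number as a block, and each library left out in turn. After the data had been seen, further alternatives were added: they left out GCERAd 4 and 5 together, used library kind, or summed libraries that may be repeats. The procedure was tested on simulated data.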

Additional observations from a re-analysis of the deposited data

Results flagged for a closer look

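Samples of 4 or 5 in a group were searched for 1 value far from the others, over 30 sets of 1 gene in 1 group, and 3 sets held one, where chance gives about 1 in 20. Tsc22d3 was at 80.3 CPM in GCERAd 5, and the nearest value of the group was 48.1 CPM. Sgk1 was at 176 CPM in the same library, with the nearest at 82.3 CPM. Fkbp5 was at 106 CPM in GCERAdT 4, with the nearest at 48.9 CPM.

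For 2 genes every sample moved one way in one comparison and the opposite way in the other. Tsc22d3 was higher in all GCERAd than in all WT libraries (log2 fold change 0.65) and lower in all libraries labelled GCERAdT than in all TRACK libraries (log2 difference -1.44). Klf9 was likewise higher in GCERAd (0.45) and lower in those labelled GCERAdT (-0.57). The difference between the comparisons was not tested.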

How the results depend on the processing

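The count of 5 genes called in GCERAd against WT stayed within 1.5 times under 19 of 20 alternatives and was 9 with GCERAd 4 and 5 left out together. Leaving out 1 library at a time gave 4 to 7. Klf9, Errfi1 and Hsd11b1 kept their direction and call in all 20. Tsc22d3 was not called with library kind as a covariate or in the first kind of library alone (adjusted p = 0.0766 and 0.0952, edgeR). Sgk1 was called lower in the first kind alone (log2 -0.90, adjusted p = 0.00508, edgeR), as was Rgcc (adjusted p = 0.0217, edgeR). The first kind holds 4 WT and only 2 GCERAd libraries. It leaves out GCERAd 4 and 5, so these calls are not separate from those made without GCERAd 4 and 5. Angptl7 was called with DESeq2 and with all 17 samples in 1 fit (adjusted p = 0.0140 and 0.0152), and without GCERAd 4 or GCERAd 5 (0.0387 and 0.0161, edgeR). Rgcc, near 0 at 0.01, turned to -0.0013 with the FPKM minimum required in every sample, -0.098 with the replicate block, -0.30 with library kind as a covariate, -0.57 without GCERAd 4 and 5 and -0.52 in the first kind alone, and ranged from -0.19 to 0.14 with 1 library left out. Fkbp5 turned to -0.38 without GCERAd 4 and 5 and to -0.15 in the first kind alone. The causes were not tested.

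Replicate numbers did not pair the samples (r of deviations -0.58 to 0.0049 between WT and GCERAd, and -0.010 to 0.029 between TRACK and GCERAdT). With the replicate number as a block 5 of the 10 genes were called, with Zbtb16 gained (adjusted p = 0.0208) and Nr3c1 lost (0.0557, edgeR), and calls over all genes went from 3196 to 2105. Tsc22d3 and Hsd11b1 had a log2 fold change of 0.60 and 2.98 there. The median difference of the 10 genes between GCERAdT and TRACK stayed between -1.35 and -1.24 over 15 alternatives, and was -1.25 within the second kind of library. The count of 10 other glucocorticoid-responsive genes called was between 8 and 13, and was 8 with the libraries that may be repeats summed. The lowest count of any of the 10 genes in a library was 112.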

Other observations

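The genes whose profile over the 17 libraries was most like the mean profile of the 10 genes were found among 10694 other genes by the root mean square difference of standardised log2 CPM. Cry2, a clock repressor, was nearest at 0.264 SD, with group means of 13.7 CPM in WT, 23.9 in GCERAd, 34.4 in TRACK and 13.9 in GCERAdT. Klf13, a zinc finger factor of the family of Klf9, followed at 0.319 SD, with 50.2, 66.5, 121 and 49.9 CPM in the same order. Pdlim5, Pak2 and Lpin1, a phosphatidate phosphatase that glucocorticoids raise, were at 0.364, 0.37 and 0.37 SD. Abhd15, Pcbp3, Pank3, Alas1 and Tmem87b completed the nearest 10, at 0.378 to 0.42 SD. Alas1, the first enzyme of heme synthesis, was at 124 CPM in WT, 207 in GCERAd, 316 in TRACK and 97.4 in GCERAdT. Of the 10 genes themselves, Tsc22d3 at 0.279 SD and Klf9 at 0.307 SD lay closest to their own mean and Nr3c1 at 1.38 SD farthest. This likeness describes profiles over libraries that share groups, and the members entered their own mean.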
